A study of Mus musculus with 18 samples.

Results

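The effect of deleting the long non-coding RNA Gm15551 on the transcriptome of interscapular brown adipose tissue (iBAT) was examined in 6 of the 18 libraries of the series, namely iBAT ko 1 to 3 against iBAT wt 1 to 3. The libraries were assigned to this comparison by their tissue and genotype labels. All mice were 12 weeks old and carried the C57BL/6N-ΔGm15551 strain label. The 3 wt mice were wild type litter mates of the 3 ko mice, which lacked the first exon of Gm15551 after CRISPR/Cas9 cutting. A single deletion line was used, the mice received chow, and the labels give neither sex nor which mice shared a litter. Inguinal (iWAT) and epididymal (eWAT) white fat of the same 6 mice make up the other 12 libraries. PolyA RNA was sequenced and the values are estimated read counts per gene, shown here as CPM, that is, a gene's share of the library scaled to a common total, after scaling between libraries.

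Brown adipocytes burn lipid to produce heat through UCP1, a protein of the inner mitochondrial membrane that lets protons bypass ATP synthase. Noradrenaline from sympathetic nerves drives this programme through beta-adrenergic receptors, cAMP and protein kinase A, which releases fatty acids by lipolysis and induces transcription. Long non-coding RNAs are transcripts without a known protein product, some of which act on the transcription of neighbouring genes.

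Gm15551 (ENSMUSG00000086679.2) is annotated as an antisense gene at chr3:126667329-126669044 on the minus strand of GRCm38 (GENCODE M21). Exon 1 spans chr3:126668845-126669044 with 200 bases and exon 2 spans chr3:126667329-126667663 with 335 bases, separated by an intron of 1181 bases. The gene lies within Camk2d (chr3:126596302-126846326, plus strand), which encodes the delta chain of calcium/calmodulin-dependent protein kinase II. Of 28 annotated Camk2d transcripts, 17 hold the whole of Gm15551 inside intron 2 and 0 have an exon over it. Exon 1 is printed because the deletion was aimed at it, on the transcribed strand and in capitals throughout. The 149 bases before its annotated start (chr3:126669045-126669193, minus strand, RefSeq window on GRCm38.p6) follow, with the letters TATATAA in capitals.
Gm15551 exon 1: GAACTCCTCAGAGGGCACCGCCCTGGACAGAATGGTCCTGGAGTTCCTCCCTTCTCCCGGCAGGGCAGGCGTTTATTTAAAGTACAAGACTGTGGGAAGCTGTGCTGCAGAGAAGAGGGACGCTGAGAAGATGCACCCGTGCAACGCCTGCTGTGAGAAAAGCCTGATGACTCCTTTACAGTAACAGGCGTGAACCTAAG
Gm15551 upstream: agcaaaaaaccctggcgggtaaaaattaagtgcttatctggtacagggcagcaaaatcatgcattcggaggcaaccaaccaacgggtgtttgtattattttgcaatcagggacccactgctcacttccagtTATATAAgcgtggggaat
The first base of TATATAA lies 18 bases before the annotated start. On either strand these letters occur within 250 bases before a start in 3.60% of 27025 genes of the RefSeq table.

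Gm15551 was read in every wild type iBAT library and in none of the knockout iBAT libraries. Its level was 4.21, 2.72 and 2.59 CPM in wt 1 to 3 (68, 42 and 40 counts; mean 3.17 ± 0.901 CPM, SD, n = 3), and 0 counts in each ko library. Against the floor of 3 counts per library, which averaged 0.218 CPM in the ko libraries, the level was at least 14.6-fold lower. The fitted log2 fold change was -9.16 with an unadjusted p of 1.02e-05 and an adjusted p of 0.191 in edgeR's quasi-likelihood test with Benjamini-Hochberg adjustment over 18728 genes. DESeq2 gave an adjusted p of 1.41e-05. A two-sided exact permutation test gave p = 0.10, the smallest value that 3 against 3 mice allow. In white fat of the same mice the wt mean was higher. It was 6.11 ± 4.16 CPM (SD, n = 3) for iWAT and reached 9.76 ± 1.88 CPM (SD, n = 3) for eWAT, while no ko library exceeded 4 counts.

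**Figure D1:**
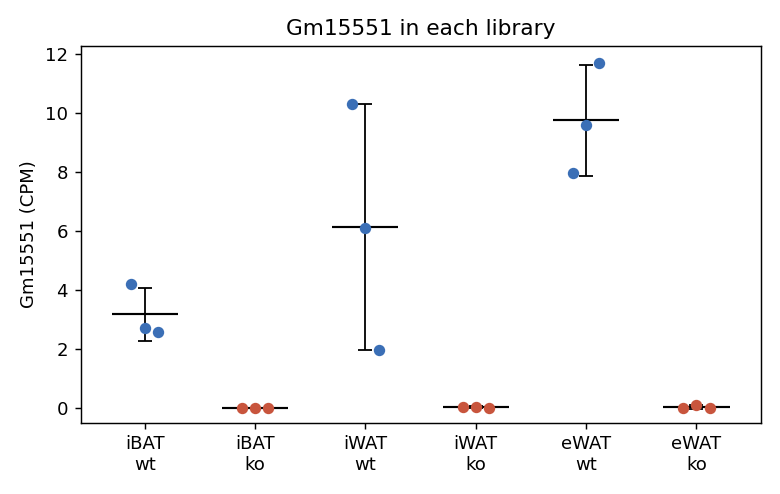
Gm15551 in CPM (linear axis) in each of the 18 libraries, by tissue and genotype. Points are libraries, horizontal lines are means and bars are SD (n = 3 per group); all 3 iBAT wt libraries lie between 2.59 and 4.21 CPM and all 3 iBAT ko libraries at 0.

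The 6 iBAT libraries held 19968075 to 24828001 counts, of which 22.9 to 27.0% came from the mitochondrial genome, against 3.77 to 9.64% in white fat. The summed level of 15 thermogenic genes was 10600 to 18700 CPM in iBAT and at most 555 CPM in white fat, and 12 white adipocyte genes summed to 153 to 330 CPM in iBAT and to at least 1220 CPM in white fat. Skeletal muscle genes summed to 4.83 to 28.1 CPM, highest in wt 3. The white adipocyte gene Tcf21 and the mesothelial genes Wt1, Upk1b and Bnc1 were at 0 in every iBAT library. All 8 mesothelial genes together summed to 4.06 to 6.95 CPM in iBAT, against 3.31 to 97 CPM in iWAT and 88.7 to 387 CPM in eWAT. Most of the iBAT sum was Lrrn4, at 3.76 to 6.57 CPM. In bulk tissue, fewer cells of a type and less RNA per cell cannot be told apart.

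Across the transcriptome, few genes separated the genotypes. With edgeR, 0 of 18728 genes passed an adjusted p of 0.05. The deleted Gm15551 itself did not pass (adjusted p = 0.191), so the absence of calls does not exclude a difference. There were 238 genes (1.27%) with an unadjusted p under 0.05, a share below the 0.05 that this threshold gives without any difference. Of these, 132 (0.705% of all genes) were higher and 106 (0.566%) lower in ko. By limma voom 0 genes passed as well, with 900 at an unadjusted p under 0.05. Levels of all 3 ko libraries lay above all 3 wt libraries for 434 genes (2.32%) and below them for 492 (2.63%), together 926 (4.94%). Among 8979 genes with a mean of at least 10 CPM, 8898 (99.1%) differed by at most 0.5 on the log2 scale. The precision of the fit over 18 libraries allowed a typical gene between 10 and 100 CPM to be bounded within 1.34-fold (median half-width of the 95% confidence interval), and a gene between 1 and 10 CPM within 1.84-fold.

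DESeq2 called 13 of 18283 genes (0.0711%), 9 higher and 4 lower in ko, with 230 at an unadjusted p under 0.05. Besides Gm15551, the called genes with reads in all 6 libraries were Sik1, Fosb, Plk3, Apold1 and Egr1, all higher in ko. The other calls were of genes without reads in 3 or more of the 6 libraries. Among these, the processed pseudogene Gm9843 had 8.98, 0 and 20 CPM in wt and 0 in every ko library, and Gm43590, a gene model with no known function, had 6.99 CPM in ko 2 and 0 in the 5 other libraries. Epcam, an epithelial adhesion protein, and Zfp750, an epidermal transcription factor, were called on 3 counts in a single ko library each. The processed pseudogenes Gm13835, Rpl23a-ps3 and Gm12191 completed the calls. When each iBAT library was left out of the DESeq2 fit in turn, 5 to 20 genes were called. Gm15551 and Gm9843 were called in all 6 of these fits, Zfp750 in 5, Sik1 in 4, Fosb, Gm43590 and Epcam in 3 each, Plk3 and Apold1 in 2 each, Egr1 and Gm12191 in 1 each, and Gm13835 and Rpl23a-ps3 in 0. Without ko 2, none of Sik1, Fosb, Plk3, Apold1 and Egr1 was called.

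**Figure D2:**
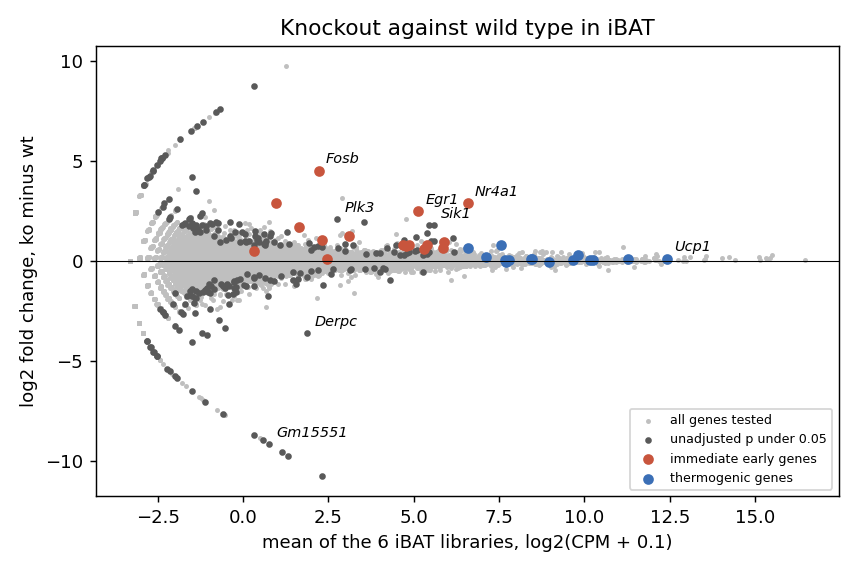
Log2 fold change of ko minus wt in iBAT for each of 18728 genes against its mean level over the 6 iBAT libraries on the log2(CPM + 0.1) scale, from the fit over 18 libraries. Dark points have an unadjusted p under 0.05; immediate early genes (red) lie above 0, thermogenic genes (blue) have a median of 0.057 with Dio2 at 0.80 and Ppargc1a at 0.62, and Gm15551 is at -9.16.

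None of the thermogenic genes separated the genotypes. Ucp1 was measured at 6660, 5340 and 3980 CPM in wt and at 7990, 5660 and 3420 CPM in ko, so that the ko libraries included both the highest and the lowest level. The log2 difference was 0.10 ± 1.24 (SE) in the fit over 18 libraries, and 0.10 ± 0.30 when only the iBAT libraries were fitted. The wider error of the first fit includes the spread among white fat libraries. Cidea, a lipid droplet protein of brown adipocytes, was at 2570, 2460 and 2240 CPM in wt and 2280, 3080 and 2290 CPM in ko (log2 difference 0.08 ± 0.15, iBAT libraries only). Cpt1b, which carries fatty acids into mitochondria, was at 1420, 1260 and 948 CPM in wt and 1540, 1200 and 1000 CPM in ko (0.05 ± 0.19). Of 15 thermogenic genes tested, 13 had a higher and 2 a lower fitted level in ko, 0 had an unadjusted p under 0.05, and the median log2 difference was 0.057, against 0 over all genes.

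Several of these genes varied widely from mouse to mouse within each genotype. Dio2, Ppargc1a and Elovl3 are named here after their values were seen, and Fabp3, Gmpr and Gk likewise varied. Dio2, which activates thyroid hormone, was at 237, 122 and 57.5 CPM in wt and 413, 265 and 46.5 CPM in ko (log2 difference 0.80 ± 0.88). Ppargc1a, a coactivator of mitochondrial genes, was at 137, 54.1 and 37.8 CPM in wt and 272, 32.2 and 48.6 CPM in ko (0.62 ± 0.72). Elovl3, a fatty acid elongase, was at 252, 91.6 and 46.8 CPM in wt and 261, 151 and 35.5 CPM in ko (0.19 ± 0.84). For all 3 genes, wt 1 and ko 1 had the highest level of their genotype, and the groups overlapped.

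**Figure D3:**
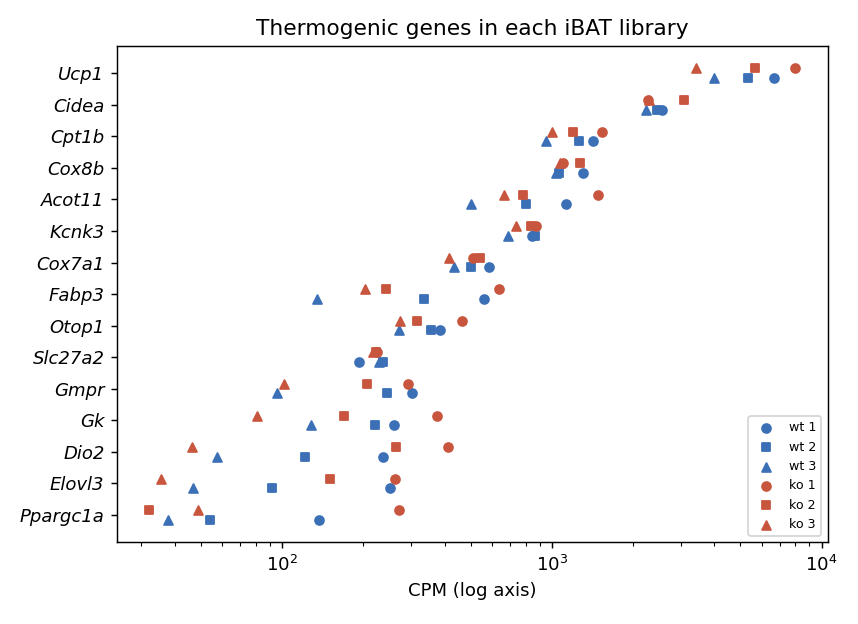
Level of 15 thermogenic genes (CPM, log axis) in each iBAT library, wt in blue and ko in red, with a marker shape for each replicate number. The groups overlapped for every gene, and Ucp1 spanned 3420 to 7990 CPM.

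The lists of the metabolic programme around thermogenesis likewise had small median differences. Of 14 lipolysis genes 13 had a higher and 1 a lower fitted level in ko with a median log2 difference of 0.065, of 17 lipogenesis genes 14 were higher and 3 lower (0.084), of 22 fatty acid oxidation genes 13 and 9 (0.027), and of 21 genes of glucose use 15 and 6 (0.035). For 29 nuclear genes of the respiratory chain the median was -0.003 with a range of -0.05 to 0.07, and for 13 mitochondrially encoded genes it was 0.104. None of these lists had a member at an unadjusted p under 0.05 by edgeR over 18 libraries. The error of this fit includes the spread among white fat libraries, so this count cannot exclude moderate changes in iBAT. Scd1, the desaturase that makes monounsaturated fatty acids, was at 43600, 46400 and 36600 CPM in wt and 63600, 47200 and 42200 CPM in ko. Its log2 difference was 0.27 ± 0.65 in this fit and 0.28 ± 0.19 with the iBAT libraries only.

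Pck1, which supplies glycerol phosphate for re-esterification of fatty acids, was the exception in the placement of its libraries. Its level was 3980, 3790 and 3930 CPM in wt and 5070, 4550 and 5130 CPM in ko, without overlap. The log2 difference was 0.33 ± 0.61 with an unadjusted p of 0.593 in edgeR over 18 libraries, and 0.34 ± 0.12 with an unadjusted p of 0.0198 when only the iBAT libraries were fitted.

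Among 19 regulators of brown fat identity, 2 (10.5%, against 1.27% of all genes) had an unadjusted p under 0.05, 1 in each direction. Irf4, a transcription factor that drives thermogenic genes and is induced by cAMP and fasting, was at 16.3, 18.9 and 26.4 CPM in wt and 21.2, 61.8 and 56.1 CPM in ko (log2 difference 1.18 ± 0.49, unadjusted p = 0.0299 and adjusted p = 1 by edgeR). The ko 2 and ko 3 libraries were above every wt library and ko 1 lay among them. Hoxc9, a patterning gene of white depots, was close to the detection limit with at most 0.259 CPM in any iBAT library. Irf4 had an unadjusted p above 0.05 without wt 1, wt 2, ko 2 or ko 3 (0.114 without ko 2), and Hoxc9 without wt 1, wt 3, ko 1 or ko 2 (0.12 without wt 3). The list median was -0.107.

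Among 29 genes of adrenergic and cAMP signalling, 2 (6.90%) had an unadjusted p under 0.05, against 1.27% of all genes, both higher in ko (Sik1 and Nr4a1, targets of cAMP signalling described below, of which Nr4a1 did not reach it without ko 2), and the median was -0.002. The receptor gene Adrb3 was at 418, 354 and 515 CPM in wt and 443, 538 and 322 CPM in ko, with overlapping groups.

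The neighbours of the deletion were examined next. Within 1000000 bp of Gm15551 lie 8 protein-coding genes, of which 6 were tested and 0 had an unadjusted p under 0.05. The host gene Camk2d was at 38.3, 44.2 and 59.1 CPM in wt and 38.2, 35.5 and 41.1 CPM in ko. Its log2 difference was -0.30 ± 0.18 with a 95% confidence interval of -0.68 to 0.08 and an unadjusted p of 0.116 by edgeR. Without single libraries it ranged from -0.43 (without wt 1, unadjusted p = 0.0391) to -0.11 (without wt 3, the highest library). In iWAT and eWAT the differences were -0.08 and -0.30. Larp7, a stabiliser of 7SK RNA, was at 22, 17.3 and 16.2 CPM in wt and 18.8, 17.3 and 16.8 CPM in ko. Zgrf1, a DNA helicase gene, was at 0.867, 1.49 and 1.16 CPM in wt and 1.02, 0.977 and 2.12 CPM in ko. Ank2, Ugt8a and Arsj had overlapping groups, and Ndst4 and Neurog2 had at most 2 counts in an iBAT library. Of 28 calcium and calmodulin kinase genes tested, 16 had a higher and 12 a lower level in ko, 0 had an unadjusted p under 0.05, and the median was 0.026.

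Immediate early genes, which are transcribed within minutes of a stimulus without new protein synthesis, had the most members at an unadjusted p under 0.05 of the 29 lists. All 16 had a higher fitted level in ko, and 11 of them (68.8%) had an unadjusted p under 0.05, against 0.705% of all genes in this direction. Levels did not overlap between genotypes for 4 of them, Egr1, Nr4a1, Zfp36 and Ier3, against 2.32% of all genes. The median log2 difference was 0.858, against 0.121 in iWAT and 0.106 in eWAT of the same mice. None of the 16 passed the edgeR adjustment over all genes, and DESeq2 called Fosb and Egr1.

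The summed level of the 16 genes was 281, 269 and 229 CPM in wt and 358, 986 and 513 CPM in ko. All ko libraries were above all wt libraries, and ko 2 was the highest (exact permutation p = 0.10, two-sided, the smallest possible). The sum is carried by the members with the highest levels, and gene by gene ko 1 was above every wt library for 7 of the 16, ko 2 for 14 and ko 3 for 12. Over all genes tested these shares were 27.1%, 22.7% and 21.7%. In white fat the sum was 299 to 521 CPM, so that wt iBAT lay below the white depots. The count of genes at an unadjusted p under 0.05 depended on single libraries. It was 3 without ko 2, 5 without wt 2, 7 without wt 3 and 9 without each of the other 3 libraries in turn. Fosb, Egr1 and Zfp36 remained in each of these fits. Of the 16 genes, 12 had their highest level in ko 2, 2 in ko 1 and 2 in ko 3. Ko 2 also had the highest summed level of 6 erythroid genes, 1960 CPM against 866 to 1320 CPM in the other 5 libraries, and the mouse identifier in its label has another prefix than those of replicates 1 and 3, as does that of wt 2. Without replicate 2 of both genotypes the count was 3. The part of erythroid RNA and of the identifier prefix in the result was not tested.

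**Figure D4:**
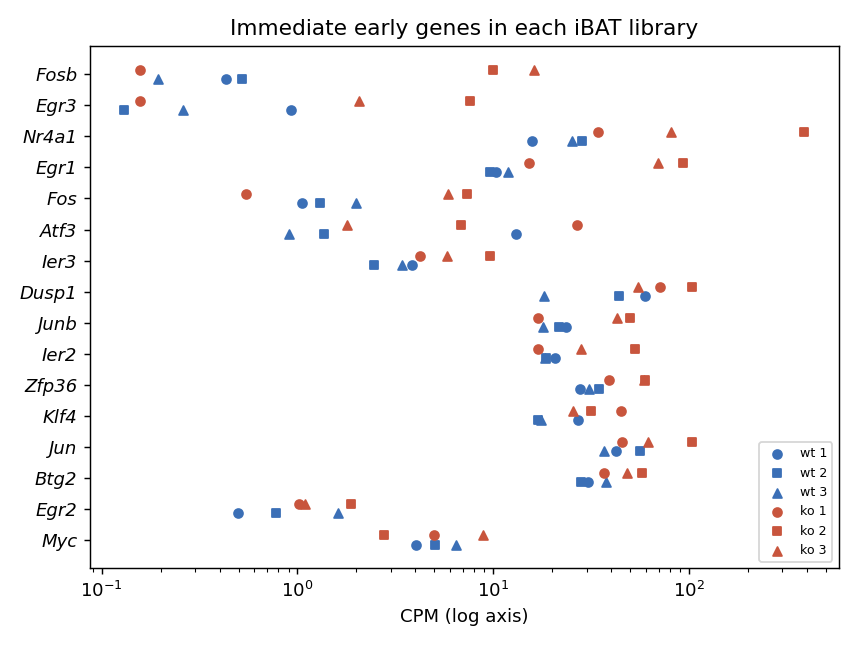
Level of 16 immediate early genes (CPM, log axis) in each iBAT library, wt in blue and ko in red, with a marker shape for each replicate number, ordered by fitted log2 fold change. The ko 2 library (red square) is the highest for 12 genes, and Myc, at the bottom, shows no separation.

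Fosb, Fos, Egr1 and Egr3 encode transcription factors. Fosb was at 0.433, 0.519 and 0.194 CPM in wt and 0.157, 9.92 and 16.2 CPM in ko (log2 difference 4.50 ± 1.06, unadjusted p = 0.00074 by edgeR, DESeq2 adjusted p = 0.00704). Without ko 3, its highest library, the log2 difference was 3.70. The ko 1 library held 2 counts and the wt libraries 7, 8 and 3, close to the floor of 3 counts, so their order is uncertain. The other ko libraries were far above the wt libraries. Fos was at 1.05, 1.3 and 2 CPM in wt and 0.548, 7.36 and 5.86 CPM in ko, with ko 1 below all 3 wt libraries. Egr1 was at 10.3, 9.59 and 11.9 CPM in wt and 15.3, 93.3 and 69.5 CPM in ko (2.48 ± 0.63, unadjusted p = 0.00138, DESeq2 adjusted p = 0.042). Egr3 was at 0.928, 0.130 and 0.259 CPM in wt and 0.157, 7.59 and 2.06 CPM in ko, so that ko 1 lay within the wt range.

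Nr4a1, an orphan nuclear receptor induced by cAMP, was at 15.7, 28.3 and 25.3 CPM in wt and 34.4, 389 and 81.1 CPM in ko (2.86 ± 0.83, unadjusted p = 0.00362 by edgeR). The groups did not overlap, and without ko 2 the log2 difference was 1.32 with an unadjusted p of 0.0783. Dusp1, a phosphatase that inactivates MAP kinases, was at 59.7, 43.7 and 18.2 CPM in wt and 70.7, 104 and 54.7 CPM in ko. Zfp36, which destabilises cytokine mRNAs, was at 27.8, 34.5 and 30.9 CPM in wt and 38.9, 59.3 and 59.1 CPM in ko, without overlap. Ier3, a stress response gene, was at 3.84, 2.46 and 3.43 CPM in wt and 4.23, 9.62 and 5.79 CPM in ko. Btg2, Ier2 and Klf4 completed the 11 genes, with log2 differences of 0.56, 0.77 and 0.72. Each of these 3 genes lost an unadjusted p under 0.05 in 4 of the 6 fits without a single library. Without ko 2, Ier2 had a log2 difference of 0.23 (unadjusted p = 0.474 by edgeR) and Btg2 of 0.40 (0.124), and without ko 1, Klf4 had 0.46 (0.205). Dusp1 and Ier3 also lost it without ko 2, with unadjusted p-values of 0.184 and 0.0716. Jun was at 42.2, 55.9 and 36.7 CPM in wt and 45.6, 103 and 62.0 CPM in ko and did not reach an unadjusted p of 0.05.

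The promoters of Nr4a1, Fosb and Dusp1, which all hold TGACG, are shown as examples. Signals of cAMP and growth factors reach many immediate early genes through short DNA elements at their start. The sequences are the 250 bases before the RefSeq start on GRCm38.p6, read 5′ to 3′ on the gene's strand, and capitals mark TGACG, the core of the cAMP response element, on either strand (CGTCA on the strand shown). Nr4a1 is on the plus strand at chr15:101266596-101266845, Fosb on the minus strand at chr7:19310046-19310295, and Dusp1 on the minus strand at chr17:26508473-26508722.
Nr4a1 promoter: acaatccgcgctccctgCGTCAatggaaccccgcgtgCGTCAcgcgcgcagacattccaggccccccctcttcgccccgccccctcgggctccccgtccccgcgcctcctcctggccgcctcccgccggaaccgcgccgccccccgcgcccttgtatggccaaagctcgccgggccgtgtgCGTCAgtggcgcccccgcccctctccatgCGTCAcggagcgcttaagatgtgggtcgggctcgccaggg
Fosb promoter: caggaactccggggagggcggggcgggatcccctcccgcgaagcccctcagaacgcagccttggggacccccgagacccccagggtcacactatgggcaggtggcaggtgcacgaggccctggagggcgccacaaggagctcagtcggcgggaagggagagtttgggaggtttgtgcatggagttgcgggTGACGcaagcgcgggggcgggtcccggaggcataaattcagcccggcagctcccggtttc
Dusp1 promoter: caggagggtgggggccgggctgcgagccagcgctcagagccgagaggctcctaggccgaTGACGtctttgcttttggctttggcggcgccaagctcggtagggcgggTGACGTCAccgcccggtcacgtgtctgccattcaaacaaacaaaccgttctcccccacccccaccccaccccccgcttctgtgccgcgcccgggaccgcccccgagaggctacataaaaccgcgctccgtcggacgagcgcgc
The Nr4a1 window held 4 such matches, the Fosb window 1 and the Dusp1 window 3, of which 2 overlap in the full palindrome TGACGTCA. Of the 16 genes, 12 were matched in the RefSeq table. TGACG was found in 9 of them (75.0%), against 19.8% of 27025 genes, and TGACGTCA in 2 (16.7%), against 1.77%. The CArG box, the site of serum response factor, was found in 2 (16.7%), against 1.62%. The windows of the 12 genes averaged 65.8% G and C against 53.0% over all genes. The windows of Zfp36, Ier3 and Jun held no TGACG. Those of Atf3, Junb and Egr2 held it, although these are not among the 11 genes at an unadjusted p under 0.05 by edgeR. These matches are letters in a window and not measured binding, and their relation to the ko difference was not tested.

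Outside the list, the genes with the smallest p-values among those higher in ko, each with an edgeR adjusted p of 1, are described next. Sik1 (chr17:31844250-31855804), a kinase induced by cAMP that restrains CREB target genes, was at 26.4, 15 and 24.9 CPM in wt and 56.8, 120 and 47.7 CPM in ko. The groups did not overlap, and the log2 difference was 1.76 ± 0.36 (unadjusted p = 0.000198 by edgeR, DESeq2 adjusted p = 0.00704). Plk3 (chr4:117128655-117133963), a stress-induced kinase, was at 3.90, 2.01 and 1.81 CPM in wt and 13.5, 13.0 and 5.92 CPM in ko (2.07 ± 0.45, unadjusted p = 0.000382, DESeq2 adjusted p = 0.0128). Apold1 (chr6:134981718-134986836), an early response gene of endothelial cells, was at 8.05, 2.66 and 3.81 CPM in wt and 19.7, 24.6 and 10.8 CPM in ko (1.92 ± 0.42, unadjusted p = 0.000395, DESeq2 adjusted p = 0.0128). For these 3 genes every ko library was above every wt library, and leaving out ko 2 gave log2 differences of 1.24, 1.91 and 1.65. Exons of Plk3, Dusp1, Jun, Irs2 and Zfp36 overlap genes on the opposite strand in the annotation, whose reads cannot be told apart without strand.

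Irs2, an adaptor of the insulin receptor, was at 16.2, 20.2 and 23.3 CPM in wt and 22.3, 115 and 65.8 CPM in ko, with ko 1 inside the wt range (1.76 ± 0.46, unadjusted p = 0.00178 by edgeR). Without ko 2 its log2 difference was 1.14 (unadjusted p = 0.0199). Gadd45g, a growth arrest gene, was at 65.8, 31.8 and 35.4 CPM in wt and 85.5, 128 and 78.4 CPM in ko (1.13 ± 0.33, unadjusted p = 0.00361). Nufip2, an RNA-binding protein gene, was at 18.3, 17.0 and 19.2 CPM in wt and 23.4, 29.0 and 21.4 CPM in ko (0.44 ± 0.12, unadjusted p = 0.00314). All ko libraries were above all wt libraries for Gadd45g and Nufip2.

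Cdk5rap1, which modifies mitochondrial tRNAs, was at 17.8, 13.5 and 18.4 CPM in wt and 34.4, 24.9 and 25.2 CPM in ko (0.76 ± 0.21, unadjusted p = 0.0021 by edgeR, DESeq2 adjusted p = 0.32). Its differences in the white depots of the same mice were 0.66 ± 0.21 in iWAT and 0.50 ± 0.21 in eWAT. Rslcan18, a zinc finger gene, was at 1.18, 0.713 and 1.03 CPM in wt and 2.11, 2.78 and 2 CPM in ko. Its exons overlap those of Zfp708 on the same strand in the annotation, so that its count could include reads of that gene.

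The 10 genes with the smallest p-values among those lower in ko were led by Gm15551, and the next had small differences or low levels. Arid5b, a DNA-binding coregulator of adipose development, was at 45.9, 39.1 and 53.6 CPM in wt and 36.8, 25.3 and 31.4 CPM in ko (-0.57 ± 0.15, unadjusted p = 0.00198 by edgeR). Dgcr8, the RNA-binding partner of Drosha in microRNA processing, was at 21.2, 18.9 and 20.4 CPM in wt and 17.8, 13.3 and 14.8 CPM in ko (-0.40 ± 0.12, unadjusted p = 0.00433). Mrpl23, a mitochondrial ribosomal protein gene, was at 4.46, 4.21 and 4.98 CPM in wt and 2.51, 3.08 and 2.19 CPM in ko (-0.81 ± 0.27, unadjusted p = 0.00894). For each of these genes every ko library was below every wt library.

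The non-coding genes Gm26782 and 4632415L05Rik had log2 differences of -0.43 ± 0.15 and -0.37 ± 0.13. Zfp968, a zinc finger gene of a family with near-identical members, was at 1.80, 1.62 and 1.42 CPM in wt and 0.783, 0.451 and 0.773 CPM in ko. Derpc was at 9.53, 4.67 and 5.69 CPM in wt and 1.10, 0.376 and 0.129 CPM in ko (-3.64 ± 1.32, unadjusted p = 0.0147 by edgeR). The log2 difference was -4.72 without ko 1 and -3.17 without ko 3, where the unadjusted p was 0.0556. Its exons overlap those of Chtf8 on the same strand, and Chtf8 was at 61.9, 64.0 and 53.7 CPM in wt and 69.8, 54.3 and 59.5 CPM in ko, so that the division of reads between these transcripts is uncertain. The processed pseudogenes Gm12191 and Gm12751 were at 0 in every ko library and at most at 5.06 CPM in wt.

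**Figure D5:**
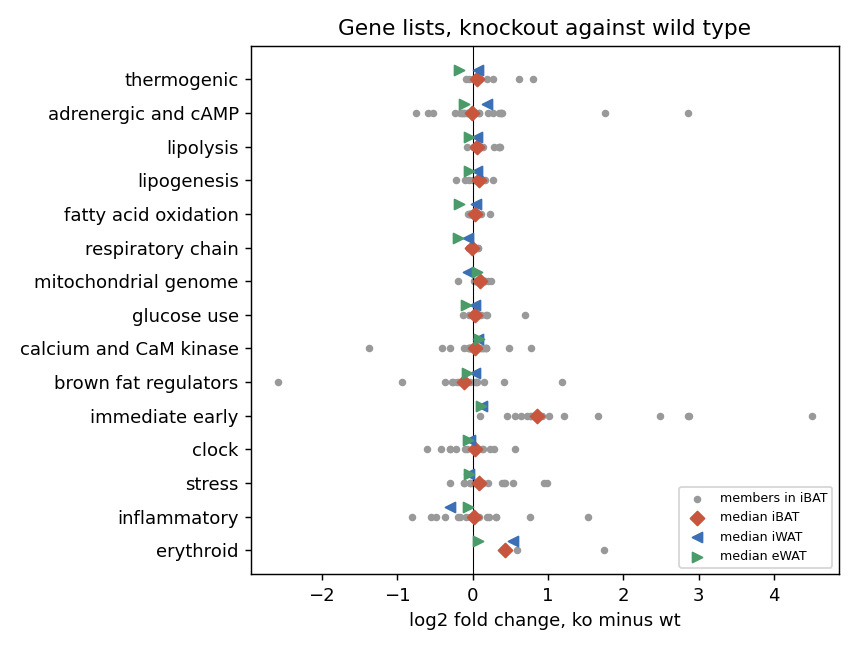
Log2 fold change of ko minus wt for the members of 15 gene lists in iBAT (grey), with the list median in iBAT (red), iWAT (blue) and eWAT (green). The immediate early list has a median of 0.858 in iBAT against 0.121 and 0.106 in the white depots, and the metabolic lists lie near 0.

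A difference of the genotype effect between tissues was tested for every gene. With the joint interaction test of edgeR, 0 of 18728 genes passed an adjusted p of 0.05, and 264 (1.41%) had an unadjusted p under 0.05. Tested singly, iBAT minus iWAT gave 250 genes (1.33%) and iBAT minus eWAT 336 (1.79%) at an unadjusted p under 0.05, with 3 and 4 of the 16 immediate early genes among them, and 0 genes passed adjustment in either. Among the 16 immediate early genes, 4 had an unadjusted p under 0.05 in this test, with Fosb at 0.0074, Ier3 at 0.00658, Nr4a1 at 0.032 and Egr1 at 0.0379, and each had an adjusted p of 1. The 3 tissues came from the same 6 mice, which this fit does not take into account. With a term for each mouse, so that tissues were compared within mice, 0 genes passed adjustment in the joint test and 213 (1.14%) had an unadjusted p under 0.05. The immediate early genes among these numbered 6, namely Fosb, Egr1, Ier3, Btg2, Nr4a1 and Klf4. In iWAT 11 of the 16 genes and in eWAT 9 had a higher fitted level in ko, with 1 gene at an unadjusted p under 0.05 in each, against 2.22% of all genes in iWAT and 4.35% in eWAT. Sik1 had log2 differences of 1.76 ± 0.36 in iBAT, 1.18 ± 0.35 in iWAT and 0.14 ± 0.35 in eWAT. Plk3 had 2.07 ± 0.45, 0.17 ± 0.43 and -0.29 ± 0.43. Apold1 had 1.92 ± 0.42, 1.06 ± 0.41 and 0.28 ± 0.41, and its iWAT levels of 3.99, 3.56 and 4.75 CPM in wt and 9.74, 8.08 and 7.85 CPM in ko did not overlap.

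Other processes likewise had small median differences in the fit over 18 libraries, whose error includes the spread among white fat libraries. Clock genes had a median of 0.038 over 18 genes, genes of the stress response 0.085 over 16, NF-kB and inflammatory genes 0.017 over 17, and 20 known non-coding RNAs 0.040, with 0 members at an unadjusted p under 0.05 in each list. Bhlhe40, a repressor of the clock, was at 195, 216 and 302 CPM in wt and 157, 137 and 240 CPM in ko. The imprinted non-coding RNA Peg13 was at 63.3, 64.0 and 62.9 CPM in wt and 58.8, 54.4 and 59.9 CPM in ko, without overlap but with an unadjusted p of 0.602 by edgeR.

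Cell type markers were compared as summed levels. Endothelial genes summed to 1500 to 1640 CPM in wt and 1400 to 1640 CPM in ko, and mural genes to 1010 to 1040 CPM and 990 to 1020 CPM. Macrophage genes ranged from 102 to 244 CPM in wt and from 106 to 185 CPM in ko. Matrix and progenitor genes were at 729, 1050 and 700 CPM in wt and 899, 977 and 1070 CPM in ko (exact permutation p = 0.30, two-sided), with Col3a1, a fibrillar collagen, at 209, 318 and 211 CPM in wt and 299, 304 and 387 CPM in ko. The groups overlapped for each of these sums. Erythroid genes were at 1000, 914 and 1160 CPM in wt and 1320, 1960 and 866 CPM in ko, with Hbb-b1, a beta globin gene, at 856 CPM in ko 2 and 394 to 567 CPM in the other 5 libraries. Msln, a mesothelial surface protein gene, had 0 counts in wt and 1.17, 0 and 0.322 CPM in ko, on 15, 0 and 5 counts (unadjusted p = 0.00494 and adjusted p = 1 by edgeR). It was the 1 of 8 mesothelial genes (12.5%, against 1.27% of all genes) at an unadjusted p under 0.05.

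The remaining lists had 0 members at an unadjusted p under 0.05. Their median log2 differences were 0.027 for 14 common adipocyte genes, -0.223 for 12 white adipocyte genes, -0.017 for 11 genes of heat-producing cycles other than UCP1, 0.054 for 15 secreted factors of brown fat and -0.046 for 7 nerve and Schwann cell genes. For 15 lymphocyte genes the median was -0.414, and 0.165 without replicate 2 of both genotypes. For 13 skeletal muscle genes it was -0.961, and 0.591 without wt 3, the library with the most muscle RNA. The 3 inflammatory genes that the study had singled out, Hp, Lcn2 and Saa3, had overlapping groups, and Lcn2 and Saa3 stayed below 1 CPM.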

How the data were processed

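Frozen tissue was lysed in TRIsure, polyA libraries were made with the NEBNext Ultra II RNA kit and sequenced as read pairs. Per the study's methods, the authors filtered reads by cutadapt, then ran salmon on the GENCODE M22 transcriptome, alone or with RNAcentral transcripts (GRCm38). The deposited values are estimated counts per gene, given as whole numbers. How strand was used and how transcripts were summed per gene is not given in the sources used here. Without strand, reads of a gene and its antisense partner cannot be told apart.

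All 18 libraries were fitted in edgeR 4.0.16 (R 4.3.3) with a mean per tissue and genotype, TMM scaling and filterByExpr, which kept 18728 genes. The contrast iBAT ko minus iBAT wt was tested by the quasi-likelihood F-test with Benjamini-Hochberg adjustment and a threshold of 0.05. DESeq2 1.42.0 and limma 3.58.1 (voom) were alternatives. Script results were tested on simulated data. Gene names and positions came from GENCODE M21 and RefSeq tables. The deletion coordinates in the study's methods do not overlap the annotated position of Gm15551 and were not used.

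The comparison and the 29 gene lists were chosen with earlier results of these data known. Named genes were Gm15551, its protein-coding neighbours within 1000000 bp, of each list the 4 members with the highest level in iBAT and all members at an unadjusted p under 0.05, the 10 genes per direction with the smallest p at a mean of at least 1 CPM, and genes called by any tool. Those printed are a selection of these. The labels do not say whether cDNA libraries were prepared together, and p-values rest on the spread between single mice. In the main fit this spread is pooled over 3 tissues of the same 6 mice, with no term for the mouse.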

Additional observations from a re-analysis of the deposited data

Results flagged for a closer look

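For 3 named genes every ko library lay on one side of every wt library in iBAT and on the opposite side in a white depot of the same mice. These genes were named for a small p in the iBAT contrast and then picked for this placement, which favours separation in iBAT. In iBAT alone the groups did not overlap for 4.94% of all genes. The share of all genes with an opposite placement in white fat was not counted. Ier3 had a log2 fold change of 1.01 in iBAT and -0.46 in eWAT, where it was at 6.38, 5.34 and 5.48 CPM in wt and 3.56, 5.26 and 3.66 CPM in ko. Arid5b had -0.57 in iBAT and 0.30 in eWAT, at 38.7, 35.4 and 36.2 CPM in wt and 49.7, 40.1 and 46.0 CPM in ko. Zfp968 had -1.26 in iBAT and 1.36 in iWAT, at 1.27, 0.760 and 0.660 CPM in wt and 1.89, 2.35 and 2.68 CPM in ko. The joint interaction test of edgeR gave unadjusted p-values of 0.00658, 0.00294 and 0.000411 for these genes, and none passed adjustment over all genes (adjusted p = 1). As the genes were picked for this difference, these p-values are no support for it.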

How the results depend on the processing

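Under 11 alternatives and 6 fits without a single iBAT library, edgeR and voom called 0 genes, and DESeq2 called 13. Gm15551 was lower in every fit that held it and passed adjustment by DESeq2 only (log2 fold change -7.89). Genes at an unadjusted p under 0.05 numbered 88 with at least 10 counts required in every iBAT library, 412 without a filter, 900 by voom, 427 with the iBAT libraries only and a replicate block, and 369 without ko 3, against 238. Deviations of same-numbered mice correlated at 0.635, 0.011 and 0.537 for replicates 1 to 3, and those of differently numbered mice at -0.638 to 0.153. The labels do not say which mice shared a litter, so the main fit did not pair them by number. With a replicate block over 18 libraries edgeR called 0 genes, with 235 at an unadjusted p under 0.05. The immediate early count of 11 was 7 with at least 10 counts in every iBAT library, 3 without replicate 2 of both genotypes, 9 with the replicate block and 3 to 9 without single libraries; this count was chosen after the data were seen, as were the DESeq2 fits without single libraries and the interaction fit with a term for each mouse, in which 6 immediate early genes against 4 had an unadjusted p under 0.05. Signs near 0 turned for Ucp1 (-0.05) and Cpt1b (-0.06) by voom, and without replicate 2 of both genotypes for Cidea (-0.07), Adrb3 (-0.29) and Hbb-b1 (-0.01), where Gm43590, Epcam and Rpl23a-ps3 were at 0. Without single libraries, log2 fold changes ranged from -0.16 to 0.07 for Larp7, -0.24 to 0.44 for Zgrf1, -0.24 to 0.35 for Ucp1, -0.08 to 0.14 for Cidea, -0.14 to 0.18 for Cpt1b, -0.17 to 0.19 for Adrb3, 0 to 9.33 for Gm43590, 0 to 4.45 for Epcam, 0 to 4.3 for Zfp750 and -9.49 to 0 for Rpl23a-ps3. Across all settings, 91 summed marker levels moved by less than the spread between mice, and 17 list medians moved by more. The 493 medians counted as unchanged include those of all genes, which were not compared with a spread. Of the values of 51 named genes 797 kept direction and call, 23 changed sign or went to 0, and 12 passed adjustment under DESeq2 only. The median of all genes moved by at most 0.012 under any scaling or test. The cause of these shifts was not tested. Depth limits genes below the floor of 0.186 to 0.235 CPM, which 3 counts give in an iBAT library.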
